A study of Mus musculus with 7 samples.

Results

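Clec7a and 9 further genes of myeloid C-type lectin receptors were followed in microglia, the resident macrophages of the brain, sorted from inside a wild-type (WT) neuronal graft or from the cortex beside it. The genes were taken by name from the table of read counts (Clec7a, Clec12a, Clec5a, Clec4n, Clec4d, Clec4e, Clec4a1, Clec4a2, Clec4a3 and Clec10a), so that they make up 10 of its 55341 genes. All of them were found, and 7 of the 10 passed the filter on low counts that left 15257 genes for testing. Clec4n, Clec4d and Clec4e did not pass and are described by their counts. For Clec4n and Clec4e a fit without the filter is given as well.

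C-type lectin receptors of myeloid cells bind sugars and other ligands on microbes, dead cells and crystals. Activating members signal through the kinase Syk, either by a motif of their own, as in Dectin-1, the protein of Clec7a, or by a partner chain such as DAP12 (Tyrobp) or the Fc receptor γ-chain (Fcer1g). Inhibitory members carry a motif that recruits phosphatases. In the brain, Clec7a is best known as a gene that microglia express around amyloid plaques.

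Recipients were 5xFAD mice on a C57BL/6 background, in which neurons express mutant human APP and presenilin 1 transgenes from the Thy1 promoter and amyloid-β (Aβ) deposits form. Embryonic cortical cells of WT C57BL/6 mice had been injected into their cortex. The paper takes the microglia in the grafts to be host cells, as a separate experiment with labelled donor cells found no donor-derived ones. The counts used here do not show the origin of the cells. At an age of 14 weeks, which was 4 weeks after injection, grafts and small pieces of nearby cortex were cut out, and CD11b+CD45low cells were sorted and sequenced from amplified cDNA. There were 3 libraries from inside the graft (inside 1 to 3) and 4 from outside it (outside 1 to 4). The labels do not tell which libraries share a mouse or how many mice were pooled, so P values measure the spread between these libraries. If the cells inside are host cells, the comparison asks how far microglia that have entered WT tissue differ from those that stayed in the transgenic cortex.

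Between 18644807 and 25882122 reads were counted per library. Levels are given as CPM, the counts per 1000000 counts of a library after scaling with trimmed mean of M values (TMM) factors. All 10 marker genes of microglia were present in every library and together reached 37658 to 44154 CPM inside and 44387 to 47955 CPM outside the graft, and 0 of the 10 passed an adjusted P of 0.05 in either test. The log2 difference (inside over outside) was negative for all 10 in edgeR, with a median of -0.20, and for Cx3cr1, P2ry12, P2ry13 and Sall1 every inside library lay below every outside one. Cx3cr1, P2ry12 and Tmem119 differed by -0.19, -0.46 and -0.36. The genes of the sorted proteins were expressed in every library. Itgam (CD11b) was at 311 to 351 CPM inside and 260 to 389 CPM outside. Ptprc (CD45) was at 530 to 567 CPM inside and 353 to 477 CPM outside, every inside library above every outside one. Its log2 difference was 0.36 (edgeR, adjusted P = 0.337). Outside 1 stood apart on the first principal component and had the lowest weight in the weighted test, 0.448. All 9 pairs of libraries within a group differed by more than counting noise.

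Clec7a was higher in each of the 3 inside libraries than in any outside library. Inside the graft it reached 255.4 CPM in library 1, 398.9 CPM in library 2 and 154.0 CPM in library 3. Outside the graft it was at 52.3, 101.7, 34.0 and 58.5 CPM in libraries 1 to 4. The lowest inside library thus lay above the highest outside one, and the means were 269 ± 123 CPM (SD, n = 3) and 61.6 ± 28.7 CPM (SD, n = 4). In edgeR's quasi-likelihood test the difference was 4.37-fold, with a 95% interval of 2.46 to 7.76, which is 2.13 ± 0.37 (SE) on the log2 scale. Adjusted over all 15257 genes, P was 0.0682 in edgeR. In limma's voomWithQualityWeights, the test of the study's methods, the log2 difference was 2.27 ± 0.35 (SE) with an adjusted P of 0.0335. Clec7a therefore missed the study's threshold of 0.01 in both tests and passed 0.05 in the second alone. With each library left out in turn its log2 difference ran from 1.73, without inside 2, to 2.48, without outside 2, in edgeR. Its adjusted P in voomWithQualityWeights was above 0.05 without inside 1 (0.0538), outside 3 (0.180) or outside 4 (0.119).

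Counts of calls were low throughout the table. At an adjusted P below 0.01, edgeR called 0% of all genes higher and voomWithQualityWeights 0.0197%, and neither test called any of the 10 lectin genes. At 0.05, edgeR called 0.0983% of all genes higher and 0 of the lectins, and voomWithQualityWeights called 0.433% higher and 0.059% lower, with 1 lectin, Clec7a, among the higher ones. With no adjustment, 4 of the 7 tested lectins (Clec7a, Clec12a, Clec10a and Clec4a3) had P below 0.05 in edgeR and 3 (Clec7a, Clec12a and Clec4a3) in voomWithQualityWeights, against 1457 and 1858 of all 15257 genes. The DESeq2 Wald test called 1.21% of all genes higher and 0.308% lower at 0.01, with 2 lectins among the higher ones, Clec7a (adjusted P = 0.00223) and Clec12a (adjusted P = 0.00201). In 5.65% of all genes the lowest inside value exceeded the highest outside value, and Clec7a and Clec12a were the 2 lectins in which this was so. In 5.02% the highest inside value was under the lowest outside value, and Clec4a3 was the 1 lectin. The median log2 difference was 0.016 over the 7 tested lectins and -0.0064 over all genes tested in edgeR.

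**Figure D1:**
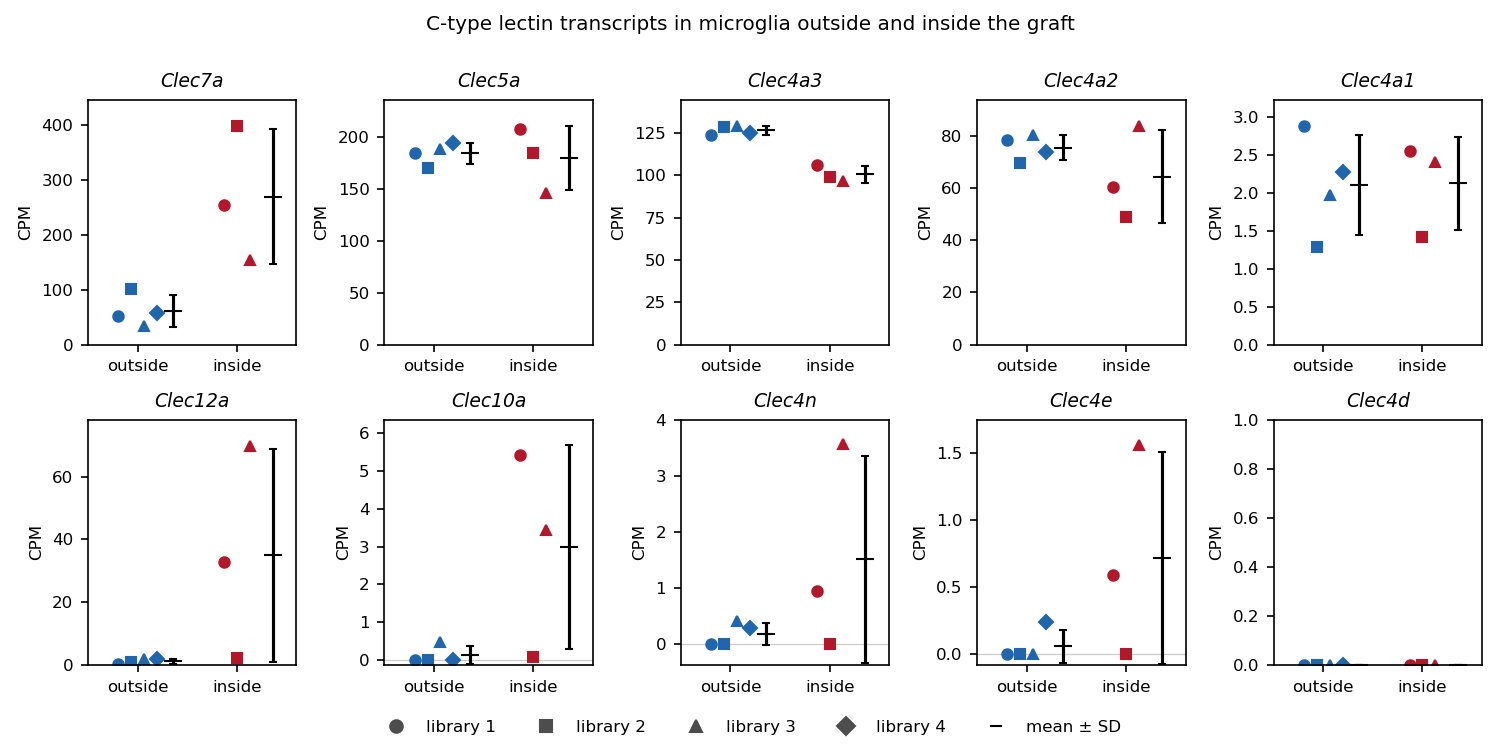
Level of each lectin gene in CPM (vertical axes, linear, each with its own scale) in the 4 libraries from outside (blue) and the 3 from inside the graft (red), with marker shapes for the library numbers and black bars for mean ± SD. Clec7a sits between 154.0 and 398.9 CPM inside and between 34.0 and 101.7 CPM outside, whereas Clec12a, Clec10a, Clec4n and Clec4e are high in inside 1 and 3 and low in inside 2.

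The genes lie close together in the genome. In GRCm38, 9 of the 10 are on chromosome 6 and Clec10a is on chromosome 11 (70156197 to 70170834). Clec4a1, Clec4a3, Clec4a2, Clec4n, Clec4d and Clec4e fall within 368 kb of chromosome 6 (122921848 to 123289870), a block that holds 9 coding genes in all. Clec12a (129342691 to 129365303) and Clec7a (129461591 to 129472779, minus strand) stand further along within 130.1 kb, and Clec5a (40574894 to 40585821, minus strand) is apart. Within the block of 6, the groups overlapped for Clec4a1 and Clec4a2 and Clec4a3 was lower in every inside library, while Clec4n and Clec4e were low and highest in inside 3. The annotation classes Clec7a as a polymorphic pseudogene, a gene that is intact in some strains, and the others as protein coding. None of the 10 shares an exon base with another gene. Of the stretches of 75 bases in their transcripts, 3.24% for Clec4a2 and 4.44% for Clec10a also occur in another gene's transcripts (Clec4a4 and Clec4b1, and Mgl2), and reads that align to several places were left out of the counts. For the other 8 genes the share was 0.

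Sequences upstream of the start site are given for 3 genes that differ in their pattern across the libraries: Clec7a, higher in all 3 inside libraries, Clec12a, highest in inside 1 and 3, and Clec5a, whose groups overlap. They are the 250 bases before the RefSeq start site on GRCm38.p6, 5′ to 3′ on the gene's strand, and capitals mark the motifs found by letter on either strand.
Clec7a, chr6:129472780-129473029, minus strand: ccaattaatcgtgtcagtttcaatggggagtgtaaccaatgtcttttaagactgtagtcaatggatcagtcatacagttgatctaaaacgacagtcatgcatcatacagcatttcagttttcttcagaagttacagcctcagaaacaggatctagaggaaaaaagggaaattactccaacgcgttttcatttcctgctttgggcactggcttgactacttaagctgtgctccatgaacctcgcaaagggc
Clec12a, chr6:129349994-129350243, plus strand: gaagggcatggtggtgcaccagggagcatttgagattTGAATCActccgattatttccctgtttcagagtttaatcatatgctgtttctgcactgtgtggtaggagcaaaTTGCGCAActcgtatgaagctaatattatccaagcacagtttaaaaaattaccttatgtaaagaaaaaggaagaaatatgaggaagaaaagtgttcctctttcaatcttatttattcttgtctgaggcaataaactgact
Clec5a, chr6:40585806-40586055, minus strand: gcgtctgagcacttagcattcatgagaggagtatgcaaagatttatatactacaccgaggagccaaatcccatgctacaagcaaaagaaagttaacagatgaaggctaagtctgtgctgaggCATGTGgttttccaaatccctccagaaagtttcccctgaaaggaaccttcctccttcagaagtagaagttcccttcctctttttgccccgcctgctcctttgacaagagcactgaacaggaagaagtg

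The motifs searched, on both strands, were AGGAAGT (bound by PU.1 and other ETS factors), TTGCNNAA (C/EBP), TGANTCA (AP-1), CANGTG (the E-box of the MITF and TFE factors) and the interferon response element. RefSeq sequences matched 8 of the 10 genes, without Clec4n and Clec10a. The window of Clec7a held none of these letters. That of Clec12a held TGANTCA 213 bases and TTGCNNAA 140 bases before the start site, and that of Clec5a held CANGTG 128 bases before it. Over the 8 genes, CANGTG was found in 4, TTGCNNAA in 2 and TGANTCA in 1, against 39.5%, 9.56% and 6.75% of 32851 promoters of the same length. AGGAAGT and the interferon response element were found in 0 of the 8, against 7.69% and 2.98%.

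Clec7a took a different place in the order of the lectin transcripts inside and outside the graft. To compare genes with each other, CPM were divided by exon length in kb. On this scale the outside libraries were led by Clec4a3 at a mean of 95.3 CPM per kb, followed by Clec5a at 48.0, Clec4a2 at 25.8 and Clec7a at 23.4. The ranges of Clec4a2 (23.7 to 27.4) and Clec7a (12.9 to 38.6) overlapped, so that these neighbours could not be ordered. Inside the graft Clec7a came first at 102 CPM per kb, with a range of 58.4 to 151 that took in that of Clec4a3 (72.7 to 80.1), while Clec5a at 46.8 and Clec4a2 at 22.0 kept clear of their neighbours. Inside, Clec12a came next at 6.31 CPM per kb, and its wide range overlapped that of Clec4a1 at 1.36. Outside, Clec4a1 came next at 1.35, clear of Clec12a at 0.214. Clec4n, Clec10a, Clec4e and Clec4d were at 1.06 or less in either group, with overlapping ranges. The median of all genes tested was 4.26 CPM per kb inside and 4.13 outside. Among the 15257 tested genes, Clec7a ranked 339 inside and 1965 outside the graft.

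The 10 genes summed to 262, 292 and 216 CPM per kb in inside 1, 2 and 3, and to 189.7, 204, 188.7 and 194 in outside 1 to 4. Clec7a made up 37.0%, 51.8% and 27.0% of this sum inside, and 10.5%, 18.9%, 6.83% and 11.4% outside. Clec4a3 made up 30.6%, 25.6% and 33.6% inside and between 47.4% and 51.6% outside. The groups did not overlap in either share, but both are parts of the same sum, so a larger share of Clec7a lowers that of Clec4a3. Clec7a was also set against Clec5a, a lectin whose groups overlap. Per length it was 1.79, 3.14 and 1.53 times as abundant inside and 0.414, 0.870, 0.263 and 0.439 times outside. As Clec5a differed little between the groups, this ratio restates the difference in Clec7a and is no separate result.

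**Figure D2:**
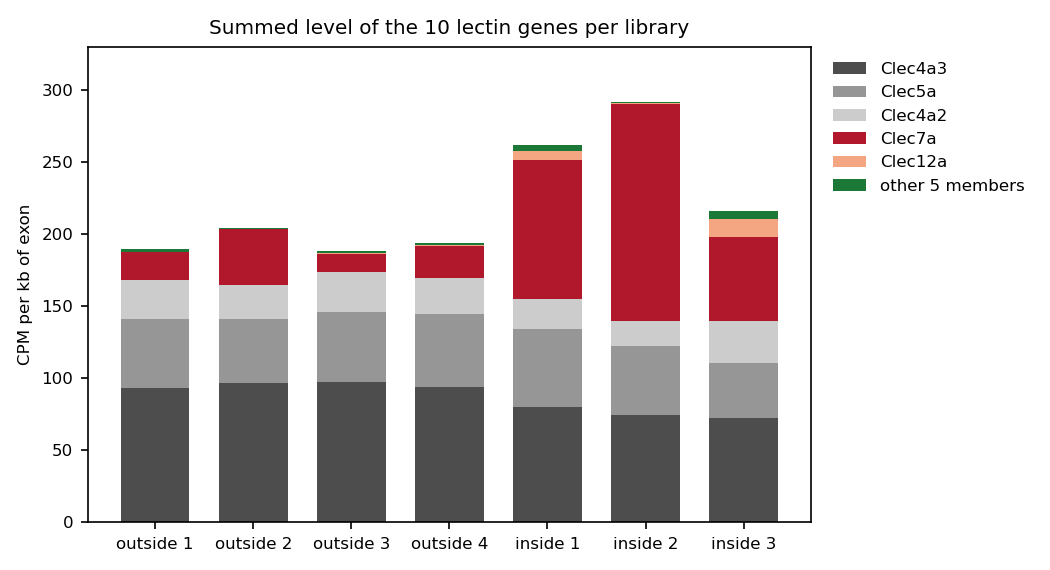
Stacked bars of the lectin genes in each of the 7 libraries, in CPM per kb of exon (vertical axis from 0). Clec7a (red) takes 27.0% to 51.8% of the bar inside the graft and 6.83% to 18.9% outside, while Clec5a, Clec4a3 and Clec4a2 (greys) make up most of the rest, with Clec4a3 lower in every inside library.

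Clec5a encodes MDL-1, an activating receptor that pairs with DAP12 and DAP10. It was at 208.0, 184.8 and 146.4 CPM inside and at 184.3, 170.2, 188.3 and 194.1 CPM outside. The groups overlapped, with means of 179.8 ± 31.1 CPM (SD, n = 3) and 184 ± 10.2 CPM (SD, n = 4). The log2 difference was -0.04 with a 95% interval of -0.33 to 0.26 (edgeR, adjusted P = 0.973), which leaves room for a fold of 0.797 to 1.20 and not for one of the size seen for Clec7a.

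Clec4a3, Clec4a2 and Clec4a1 belong to the dendritic cell immunoreceptor (DCIR) family, of which Clec4a2 encodes DCIR itself, an inhibitory receptor. Clec4a3 was at 106.3, 99.1 and 96.5 CPM inside and at 123.7, 128.5, 129.1 and 124.7 CPM outside. Every inside library lay below every outside one, and the spread within groups was small, with means of 100.6 ± 5.07 and 126.5 ± 2.68 CPM (SD). The log2 difference was -0.33 with an interval of -0.56 to -0.10, a fold of 0.795, and it did not pass the threshold (adjusted P = 0.277 in edgeR and 0.194 in voomWithQualityWeights). Clec4a2 was at 60.3, 48.9 and 83.9 CPM inside and at 78.4, 69.5, 80.2 and 73.7 CPM outside. Inside 3 had the highest and inside 2 the lowest value of all libraries, and the log2 difference was -0.23 with an interval of -0.63 to 0.17 (edgeR, adjusted P = 0.772). Clec4a1 was low in every library, between 1.42 and 2.55 CPM inside and between 1.29 and 2.88 CPM outside. Its log2 difference of 0.016 had an interval of -1.12 to 1.16 (edgeR, adjusted P = 0.996), so that at this depth a change in either direction cannot be told from none.

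Clec12a encodes MICL, an inhibitory receptor known from granulocytes, monocytes and dendritic cells that senses uric acid crystals and dead cells. Inside the graft it reached 32.7 CPM in library 1, 2.13 CPM in library 2 and 69.7 CPM in library 3, from 834, 48 and 1655 counts. Outside it was at 0.213, 0.890, 1.81 and 1.82 CPM, from 4, 20, 45 and 45 counts. Inside 2 thus lay just above the outside libraries and far below the other inside ones, and the inside mean was 34.9 ± 33.8 CPM (SD, n = 3) against 1.18 ± 0.781 CPM outside (SD, n = 4). The log2 difference was 4.85 ± 0.96 (SE) in edgeR (adjusted P = 0.0919) and 3.64 ± 1.54 (SE) in voomWithQualityWeights (adjusted P = 0.370). Without inside 2 it was 5.40 in edgeR (adjusted P = 0.0121) and 5.11 in voomWithQualityWeights (adjusted P = 0.00860), which passed 0.01. With inside 1 and inside 3 left out, an alternative added after seeing the data, inside 2 alone stood against the outside libraries and the log2 difference was 0.84 for Clec12a and 2.697 for Clec7a in edgeR. As inside 2 has the lowest inside value of Clec12a and the highest of Clec7a, these values follow from the choice of libraries, and with 1 library in the group they are given without a test.

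Clec10a encodes a receptor of macrophages and dendritic cells for galactose and N-acetylgalactosamine. It gave 138, 2 and 82 counts inside and 0, 0, 12 and 0 outside, or 5.42, 0.0888 and 3.45 CPM against 0, 0, 0.483 and 0 CPM. As for Clec12a, inside 1 and 3 were high and inside 2 was not. Its log2 difference of 4.52 had an interval of 1.06 to 7.99 (edgeR, adjusted P = 0.338; voomWithQualityWeights, adjusted P = 0.453).

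The receptors that pair with the Fc receptor γ-chain were at or near 0. Clec4n, the gene of Dectin-2, a receptor for fungal mannans, gave 24, 0 and 85 counts inside and 0, 0, 10 and 7 outside. Clec4e, the gene of Mincle, which binds mycobacterial glycolipids, gave 15, 0 and 37 counts inside and 0, 0, 0 and 6 outside. Both were again higher in inside 1 and 3 and at 0 in inside 2. Tested without the filter, their log2 differences were 3.06 (adjusted P = 0.511) and 3.40 (adjusted P = 0.564) in edgeR. Clec4d, the gene of MCL, a partner of Mincle, had 0 counts in all 7 libraries, which allows a level of up to 3 counts or 0.118 to 0.160 CPM per library. These limits cover counting error only, since amplified reads are not independent molecules.

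**Figure D3:**
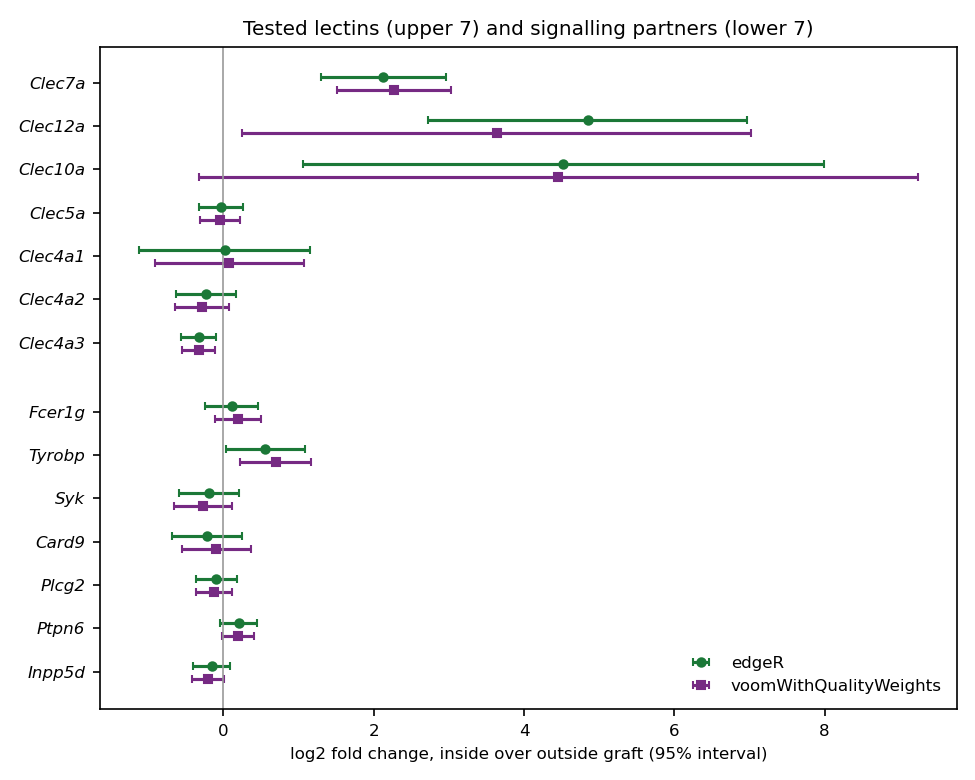
Log2 fold change of inside over outside the graft (horizontal axis), with 95% intervals, for the 7 tested lectin genes and 7 genes of their signalling partners, by edgeR (green circles) and voomWithQualityWeights (purple squares). Clec7a lies at 2.13 and 2.27 with intervals of 1.30 to 2.96 and 1.51 to 3.03. Clec12a and Clec10a lie further out with wider ones, and Clec5a lies at -0.04 in both tests.

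The signalling chain below these receptors held no gene that passed the tests. The 23 genes of adaptors, kinases, phosphatases and transcription factors on the list were all tested, with a median log2 difference of -0.022, and 0 of the 23 passed an adjusted P of 0.05 in either test (lowest 0.419 in edgeR and 0.204 in voomWithQualityWeights). Tyrobp, the gene of DAP12, was the most abundant. It was at 1712, 2569 and 1427 CPM inside and at 1479, 1687, 920.5 and 1088 CPM outside, with a log2 difference of 0.56 (edgeR, adjusted P = 0.482). Fcer1g, the Fc receptor γ-chain, was at 1078, 1490 and 1089 CPM inside and at 1313, 1262, 917 and 1028 CPM outside, a log2 difference of 0.11 (edgeR, adjusted P = 0.904). Of the enzymes, the phosphatase SHIP1 (Inpp5d) had a log2 difference of -0.16 (adjusted P = 0.729) and the kinase Lyn one of -0.13 (adjusted P = 0.766), both in edgeR. Syk itself was at 205.5, 149.9 and 190.7 CPM inside and at 172.9, 174.0, 211.9 and 272.3 CPM outside. The difference for Syk was -0.19 on the log2 scale with an interval of -0.59 to 0.21, and for Card9, the adaptor that links Syk to NF-κB, it was -0.22 with an interval of -0.69 to 0.25. For both, an increase as large as that of Clec7a lies outside the interval.

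Genes that Dectin-1 signalling is known to induce were listed as well. Of 14 such genes, 8 passed the filter, with a median log2 difference of 0.87 against -0.0064 for all genes. A sparse gene could pass the filter on its inside libraries alone, so this median is not independent of the filter. None (0 of the 8) passed an adjusted P of 0.05 in either test. The most abundant were Nfatc1, a transcription factor, and the chemokines Ccl3 and Ccl4. Nfatc1 was at 265.8, 247.0 and 256.5 CPM inside and at 263.4, 247.7, 257.3 and 235.0 CPM outside, a log2 difference of 0.03. Ccl3 was at 131.6, 208.2 and 97.4 CPM inside and at 93.2, 128.1, 33.4 and 75.6 CPM outside, and Ccl4 at 97.9, 181.0 and 100.5 CPM and at 51.1, 126.1, 20.3 and 68.9 CPM. Inside 2 was highest and outside 3 lowest for both, as for Clec7a, but the groups overlapped and the log2 differences of 0.82 and 0.93 did not pass the threshold (adjusted P = 0.548 and 0.589 in edgeR). The cytokine Il6 was at 4.63 to 12.3 CPM inside and 8.91 to 16.4 CPM outside, with a log2 difference of -0.66. Il10 and Cxcl1 had 0 counts in all libraries.

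Most other genes listed as lectin-like, not all of them receptors, did not pass the filter on low counts. Of 46 such genes, 18 passed the filter and 12 had 0 counts in all 7 libraries. The log2 difference in edgeR was positive for 15 of the 18 and negative for 3. Their median was 0.96, against -0.0064 for all genes. Outside the graft, 10 of the 46 had a mean of at least 1 CPM. As a sparse gene could pass the filter on its inside libraries alone, these signs are not independent of the filter. None of them (0 of the 18) passed an adjusted P of 0.05 in either test. The most abundant were Cd302, the collagen receptor Mrc2, Clec16a and the mannose receptor Mrc1. Cd302 was at 118.5, 127.7 and 87.4 CPM inside and at 147.4, 138.7, 130.8 and 139.0 CPM outside, every inside library below every outside one, with a log2 difference of -0.32 (edgeR, adjusted P = 0.508). Mrc2 had a log2 difference of 0.42 (adjusted P = 0.566) and Clec16a one of -0.05 (adjusted P = 0.974) in edgeR. Mrc1 was at 61.2, 7.81 and 48.6 CPM inside and at 14.2, 4.18, 9.01 and 9.03 CPM outside, high in inside 1 and 3 and within the outside range in inside 2, with a log2 difference of 2.11 (edgeR, adjusted P = 0.206).

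Clec7a was then set beside genes known from microglia around plaques. All 17 genes of this list were tested and had a positive log2 difference, with a median of 1.51 against -0.0064 for all genes, and 5 passed an adjusted P of 0.05 in edgeR. These were Apoe, an apolipoprotein (2.44, adjusted P = 0.0357), Axl, a receptor kinase for dying cells (2.39, adjusted P = 0.0357), Gpnmb (7.11, adjusted P = 0.0357), the fatty acid carrier Fabp5 (2.79, adjusted P = 0.0485) and galectin-3, Lgals3 (2.26, adjusted P = 0.0368). In voomWithQualityWeights 5 passed as well, with Itgax (CD11c, adjusted P = 0.0474) in place of Gpnmb (adjusted P = 0.0831). The sum over the list put the libraries in a similar order to that of Clec7a. It was 14802, 24230 and 12459 CPM in inside 1, 2 and 3 and between 6398, in outside 3, and 9657 CPM, in outside 2. Clec7a too was highest in inside 2 and, outside the graft, highest in library 2 and lowest in library 3. Inside 2 had the highest value for 16 of the 17 genes. The order of inside 1 and inside 3 varied between genes. Among the inside libraries Axl was lowest in inside 3, as was Clec7a, but Apoe, Gpnmb, Fabp5 and Lgals3 were lowest in inside 1. Apoe, for example, was at 3077, 8306 and 3990 CPM in inside 1, 2 and 3. The most abundant genes of the list, Ctsb, Apoe, Cd9 and Cd63, had log2 differences of 0.57, 2.44, 0.57 and 0.85.

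Likeness to Clec7a was also measured without a list, as the root mean square difference of centred log2 CPM over the 7 libraries, among 8917 genes with a mean of at least 10 CPM. The closest genes were Pdcd1 (0.272), Axl (0.305) and Chst2 (0.330), against a median of 1.23 over all 8917. Pdcd1, the gene of the immune checkpoint receptor PD-1, was at 49.3, 74.0 and 23.5 CPM inside and at 11.9, 19.97, 7.52 and 17.2 CPM outside. Axl was at 278.9, 508.4 and 237.0 CPM inside and at 67.1, 78.9, 34.2 and 80.2 CPM outside. Chst2, a sulfotransferase, was at 47.2, 69.6 and 44.4 CPM inside and at 15.5, 21.6, 9.66 and 18.5 CPM outside. With 7 libraries in 2 groups these distances are a description. Among the lectins themselves, the closest pair was Clec5a and Clec4a3 (0.186), then Clec4a2 and Clec4a3 (0.239), whereas Clec12a and Clec10a were 1.04 apart and Clec7a and Clec12a 2.23.

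Among the inside libraries Clec12a, Clec10a, Clec4n and Clec4e were lowest in inside 2, and so were the summed markers of monocytes and neutrophils. Clec10a was highest in inside 1, and Clec12a, Clec4n, Clec4e and both sums in inside 3. The 11 monocyte markers summed to 744, 98.1 and 1531 CPM in inside 1, 2 and 3 and to 17.4 to 34.6 CPM outside. The 12 neutrophil markers summed to 8316, 1591 and 16141 CPM inside and to 687 to 1087 CPM outside. Csf3r, which was at 687 to 790 CPM in every library, made up most of the outside sums, and in outside 3, the library at 1087 CPM, S100a8 (80.3 CPM), S100a9 (85.9 CPM) and Ngp (94.6 CPM) were present as well. For Clec12a the values in the same order were 32.7, 2.13 and 69.7 CPM. Inside 3 was the highest library for 7 of the 10 tested monocyte markers and 8 of the 10 tested neutrophil markers. Of the others, Gpr141 was highest in inside 1, Ms4a4c and Csf3r in inside 2, Vcan in outside 1 and Retnlg in outside 3. Of the untested ones, F10 and Elane were highest in inside 3 and Mmp8 in outside 3. Hp was at 58.5, 3.51 and 112 CPM inside and at 0 to 2.45 CPM outside, and Ccr2 at 31.8, 4.26 and 73.0 CPM inside and at 4.06 to 18.1 CPM outside. Chil3, the most abundant monocyte marker, was at 587, 67.6 and 1189 CPM inside and at 0, 0, 15.0 and 1.38 CPM outside. It made up most of the monocyte sum in each inside library. S100a8, a calcium-binding protein of neutrophils, was at 1953, 208 and 4077 CPM inside and at 0.213, 0.0890, 80.3 and 8.91 CPM outside. Its partner S100a9 was at 1749, 177 and 3834 CPM inside. The neutrophil granule gene Ngp was at 2020, 182 and 3930 CPM inside and at 94.6 CPM in outside 3 and 0 in the other outside libraries. In these lists 0 genes passed an adjusted P of 0.05 in either test. The study's methods name antibodies to Ly6C and Ly6G, which mark these cells, among the lineage antibodies of the microglial gate. Whether such cells or their RNA have a part in the levels of Clec12a, Clec10a, Clec4n and Clec4e was not tested. After the values of Clec12a were seen, its nearest genes with a mean of at least 10 CPM were looked up by the same distance. They were Ly6c2 (1.11), Pglyrp1 (1.13) and Plbd1 (1.15), against a median of 2.61. Clec10a, with a lower mean, was nearer at 1.04. Ly6c2, a monocyte antigen, was at 23.9, 1.73 and 71.7 CPM inside and at 0, 0, 0.644 and 0.891 CPM outside.

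Clec7a had the reverse order of Clec12a and of the monocyte and neutrophil sums among the inside libraries. It was highest in inside 2, the inside library with the lowest sums of monocyte and neutrophil markers. Whether other cells have a part in its level was not tested.

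**Figure D4:**
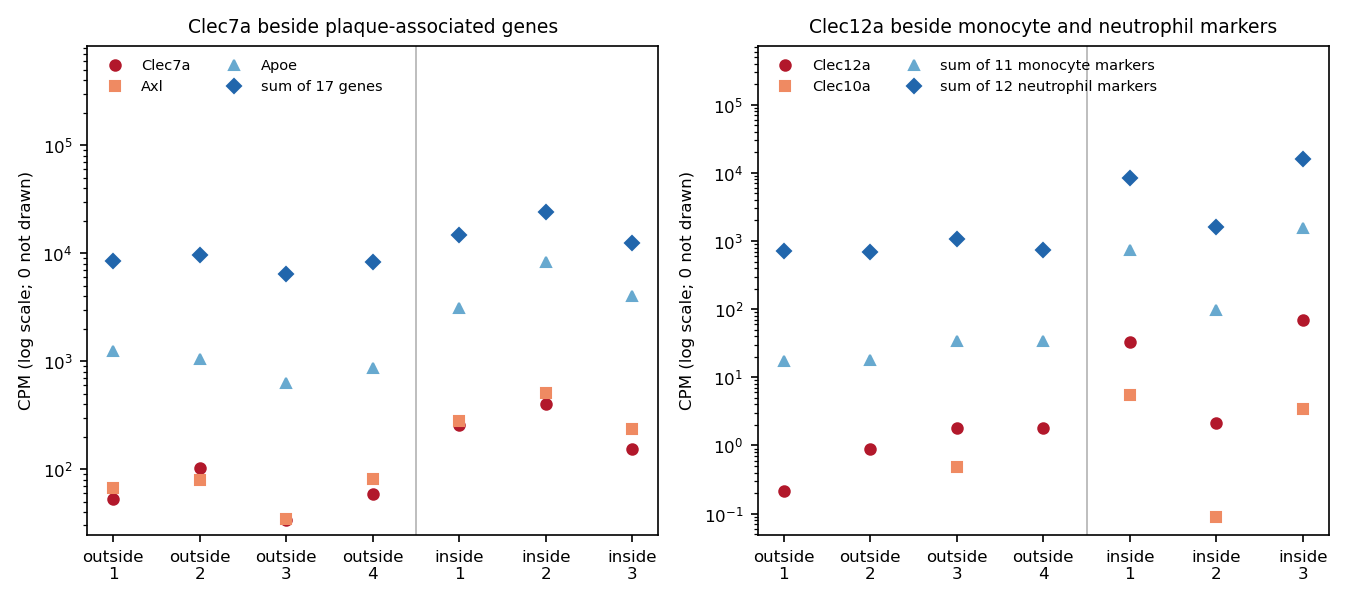
CPM on log axes (values of 0 are not drawn) in the 4 outside and 3 inside libraries. On the left, Clec7a, Axl, Apoe and the sum of 17 plaque-associated genes are all highest in inside 2, and on the right Clec12a, Clec10a and the summed markers of monocytes and neutrophils are higher in inside 1 and 3 than in inside 2.

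Further lists covered other cells the gate could hold. Of 9 markers of macrophages at the brain's borders, 7 were tested and 0 passed an adjusted P of 0.05 in either test. Their median log2 difference in edgeR was 3.36, with a positive value for 6 and a negative one for 1, Stab1. Over all genes the median was -0.0064. Outside the graft, 2 of the 9 had a mean of at least 1 CPM, so these signs too are not independent of the filter. Their sum, 389 to 593 CPM inside and 530 to 624 CPM outside, was mostly Stab1, which was at 378.8 to 533 CPM inside and 527 to 622 CPM outside. Lyve1, which did not pass the filter, was at 0.628 CPM in inside 1, at 0.107 CPM in outside 1 and at 0 in the others. Pf4 was at 9.85, 3.15 and 18.8 CPM inside and at 0.0445 to 0.972 CPM outside, and Ms4a7 at 15.2, 3.51 and 18.3 CPM and at 0.107 to 2.51 CPM, both lowest in inside 2 among the inside libraries, yet above every outside value. F13a1 was at 18.0, 1.15 and 28.0 CPM inside and at 0 to 2.83 CPM outside. The 8 dendritic cell markers summed to 35.4 to 53.6 CPM inside and 25.03 to 46.5 CPM outside, with 5 tested and 0 past 0.05 in either test. The most abundant of them, Batf3, Itgae, Zbtb46 and Flt3, had log2 differences of -0.18, -0.16, 0.54 and 0.48 in edgeR. The 10 lymphocyte markers, none of which passed the filter, summed to 4.55, 1.82 and 13.4 CPM inside and to 0.081 to 0.483 CPM outside. In inside 1 and 3 the highest of them was Nkg7, which was at 2.36, 0 and 11.96 CPM inside and at 0 in all outside libraries. Ms4a1, Gzma and Ncr1 were at 0 in every library. In bulk libraries of sorted cells, more cells with a transcript and more transcript per cell cannot be told apart, and this holds for Clec7a as for every gene here.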

How the data were processed

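Bulk RNA sequencing (single reads of sorted microglia) was analysed for 3 libraries from inside WT grafts and 4 from outside them, grouped and numbered by their labels. The authors converted base calls with bcl2fastq 2.18, aligned reads with STAR 2.7.2a to GRCm38.p6 and counted them with featureCounts 1.6.2 on the GENCODE M21 annotation. They deposited raw counts per gene name without normalization. Strand was ignored and reads aligned to several places were left out, which lowers counts of near-identical genes. Totals of 18644807 to 25882122 set the precision, and cDNA was amplified without molecular identifiers.

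From the counts, filterByExpr by group kept 15257 of 55341 genes. CPM and the main test, glmQLFTest, came from edgeR 4.0.16 with TMM factors, and voomWithQualityWeights from limma 3.58.1, in R 4.3.3. DESeq2 1.42.0 was an alternative. P values were adjusted by Benjamini-Hochberg over all genes tested, with thresholds of 0.01 and 0.05. Standard errors of edgeR were those implied by its F statistic, with 95% intervals. Levels per length used the exon lengths deposited with the counts. Likeness used log2 CPM with a prior count of 2. Scripts were tested on simulated data.

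The genes and lists were chosen with earlier results of these data known. Named were all 10 lectins, and of each other list the genes past 0.05 in either test and the 4 most abundant ones, except for items not reported here. Itgam, Ptprc and the 3 genes nearest to Clec7a were named too. Syk, Card9 and Lyve1 were named for their role. Of the lymphocyte list, with no gene tested, Nkg7 and 3 genes at 0 were named. P2ry13, Sall1, Il10, Cxcl1 and the genes nearest to Clec12a were named after their values were seen. So were Gpr141, Ms4a4c, Vcan, Retnlg, F10, Elane and Mmp8. Alternatives were other normalizations, filters, tests and thresholds, the replicate number as a block, and each library left out.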

Additional observations from a re-analysis of the deposited data

Results flagged for a closer look

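Over the 4 outside libraries, 23 values (the lectin genes, the list sums and the library measures) were checked for an outlying library. By Dixon's 95% critical value 5 stood apart. Chance would give about 1.15 for independent, normally distributed values, and sparse counts and overlapping sums are not such values. Clec4e was at 0.243 CPM in outside 4 and Clec10a at 0.483 CPM in outside 3, each at 0 in the other 3 outside libraries. Both rest on few counts, and any gene above 0 in a single outside library is flagged whatever its value. The summed level of the 46 other lectin-like genes was 270 CPM in outside 4, against 236 to 241 CPM. The summed neutrophil markers reached 1087 CPM in outside 3, against 687 to 730 CPM. On the first principal component of all tested genes outside 1 was at 117, against 5.34 to 17.5. The groups of 3 inside libraries are too small for this check.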

How the results depend on the processing

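The log2 difference of Clec7a was positive under all 16 alternatives in edgeR, between 1.73 and 2.697, and under all 15 in voomWithQualityWeights, between 1.82 and 2.58, but its side of the threshold of 0.01 depended on the setting, and the cause was not tested. In edgeR it was 2.13 (adjusted P = 4.31e-05) with no filter beyond 1 count, 2.14 (0.00998) with at least 10 counts in every library and 2.14 (0.00223) in the DESeq2 Wald test. In voomWithQualityWeights it was 2.27 (0.00352) with at least 10 counts, and the same 2.27 passes a threshold of 0.05. With each library left out it ran from 1.73 to 2.48 in edgeR and from 1.82 to 2.58 in voomWithQualityWeights. The edgeR count over all genes, 0 as reported, was 190 with no filter, 20 with at least 10 counts in every library, 232 in DESeq2, 15 at 0.05 and 0 to 1 with a library left out. The voomWithQualityWeights count, 3 as reported, was 1 on library size alone, 41 with no filter, 48 with at least 10 counts, 1 without weights, 75 at 0.05 and 0 to 33 with a library left out (33 without inside 2). Lectins called, 0 in both tests as reported, were 2 in edgeR with no filter, 1 with at least 10 counts and 2 in DESeq2, and 1 in voomWithQualityWeights with at least 10 counts and 1 at 0.05. With a library left out they were 0 in edgeR and 0 to 1 in voomWithQualityWeights.

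In a fit with a replicate block, made without outside 4, Clec7a was at 2.15 (edgeR, adjusted P = 0.00493) and 2.08 (voomWithQualityWeights, adjusted P = 2.79e-05), Clec12a at 4.81 (voomWithQualityWeights, adjusted P = 0.00582), 5 and 77 genes were called, and 1 and 2 lectins. Deviations of same-numbered libraries from their group means correlated at -0.043, 0.090 and 0.067 across genes. All other pairs of an inside with an outside library ran from -0.117 to 0.064, so that 0.090 and 0.067 were the highest values. The correlations did not meet the limit set for pairing, and the numbers were not taken as pairs. The adjusted P of Clec7a depends on this choice. Whether same-numbered libraries share a mouse is not given.

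Signs of differences near 0 turned. That of Clec5a was 0.092 without inside 3, within -0.15 to 0.092 when a library was left out, and 0.0081 without inside 1 and 3. That of Clec4a1 was -0.0100 on library size alone, -0.56 without inside 1 and 3, and -0.16 to 0.24 with a library left out (-0.13 without inside 1, -0.08 without inside 3, -0.16 without outside 2, -0.01 without outside 3). Clec12a and Clec10a could not be tested with at least 10 counts in every library, nor Clec10a without outside 3 or without inside 1 and 3. Depth limits Clec4n, Clec4d, Clec4e, Clec10a and Clec4a1.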

Other observations

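Among the lectin-like genes outside the 10, a few were singled out after their values were seen. Clec4b2, which lies between Clec4a2 and Clec4n on chromosome 6, gave 6, 14 and 54 counts inside the graft and 0 in all 4 outside libraries, and it did not pass the filter. Clec4b1, on the other side of Clec4a2, gave 28, 2 and 156 counts inside and 32, 0, 7 and 7 outside, with the lowest inside value in inside 2. Cd209f and Cd209g gave 73 and 46 counts in inside 1 and at most 4 in any other library. The natural killer cell receptor gene Klrd1 lay the other way, at 2.36, 2.80 and 2.696 CPM inside and at 4.48, 4.05, 8.01 and 6.40 CPM outside. Every inside library was below every outside one, with a log2 difference of -1.13 that did not pass the threshold (edgeR, adjusted P = 0.354).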
